A study of Homo sapiens with 35 samples.

Results

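The distal long arm of chromosome 3 was taken as all 100-kb bins of that chromosome that start at position 162000001 or later and hold a value in every cell. Of 361 bins in that range, 359 had values, spanning 162000001 to 197900000 of a chromosome whose last bin ends at 198022430. They make up 359 of the 26584 bins used over the genome, and 1592 used bins of chromosome 3 lie before them. The cells were assayed singly and belong to clone 5-5 of the human chronic myeloid leukaemia line KBM7, which is given as diploid (2N) and carries the Dam methylase fused to LaminB1. All were treated with 0.5 nM Shield1, a small molecule that stabilises the fusion protein, for 15 h, and were sorted from the smallest 2% among cells carrying both Fucci signals, which report the cell-cycle stage. The samples form 1 group of 1 clone, a control with unfused Dam was not analysed here, and regions are therefore compared within each cell.

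The nuclear lamina is a meshwork of lamin filaments under the inner nuclear membrane, and chromatin that lies against it is usually poor in genes and weakly transcribed. In DamID, the fused methylase marks GATC sites of DNA that comes near the lamina, and methylated fragments are amplified and sequenced. The distal long arm of chromosome 3 is known to carry the blood transcription factor genes MECOM and BCL6, the kinase gene PIK3CA and the developmental regulators SOX2 and TP63. These genes were not placed in bins here, because the bins are of hg19 and no gene annotation of that build was used. A contact was an OE, the ratio of observed to expected reads, of 1 or more. For each cell, the contact share is the percentage of a region's bins that made contact. For each bin, the contact frequency is the percentage of cells that made contact there.

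The table held 32 cells. Cells 13, 15 and 17 had 985, 1221 and 1755 recovered reads, so that 1 read was worth an OE of 13.7 to 24.9 in the median bin, and they stand apart from the other 29 cells, which had 40279 to 258225 reads (median 126621). Values below are for the 29 deeper cells, and values with all 32 are given beside the main ones. No columns were identical. Nothing in the labels says whether the cells came from separate cultures, so p-values describe how regular a mean difference was over these cells alone. The region and its boundary were chosen from these same OE values, and its level against the rest of chromosome 3 is therefore a description with no test. A region's OE depends on how many copies of it a cell holds as well as on how those copies meet the lamina, and these cannot be told apart in this table.

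Most of the distal long arm was either in contact in nearly every cell or in very few. A frequency of at least 80% was reached by 177 of its 359 bins (49.3%), against 200 of the 1592 bins of the rest of chromosome 3 (12.6%) and 14.2% of all used bins. In contact in no cell were 101 distal bins (28.1%), against 38.8% of the rest of chromosome 3 and 42.2% of all used bins. Chromosome 4 and X had smaller shares of such bins, 22.2% and 24.8%, and 30.1% and 24.1% of their bins reached 80%. Only 36 distal bins (10.0%) had an intermediate frequency of 20 to under 80%, against 32.3% of the rest of chromosome 3 and 27.5% of all used bins. In contact in all 29 cells were 72 distal bins, against 3 bins in the rest of chromosome 3, where the share over all used bins was 0.5%. With all 32 cells, 169 distal bins reached 80% and 101 never made contact, but 2 were in contact in every cell. The 3 shallow cells had no read in 70.6 to 82.5% of the frequently contacted distal bins. Because the region was chosen from these values, the counts describe it and do not test it.

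**Figure D1:**
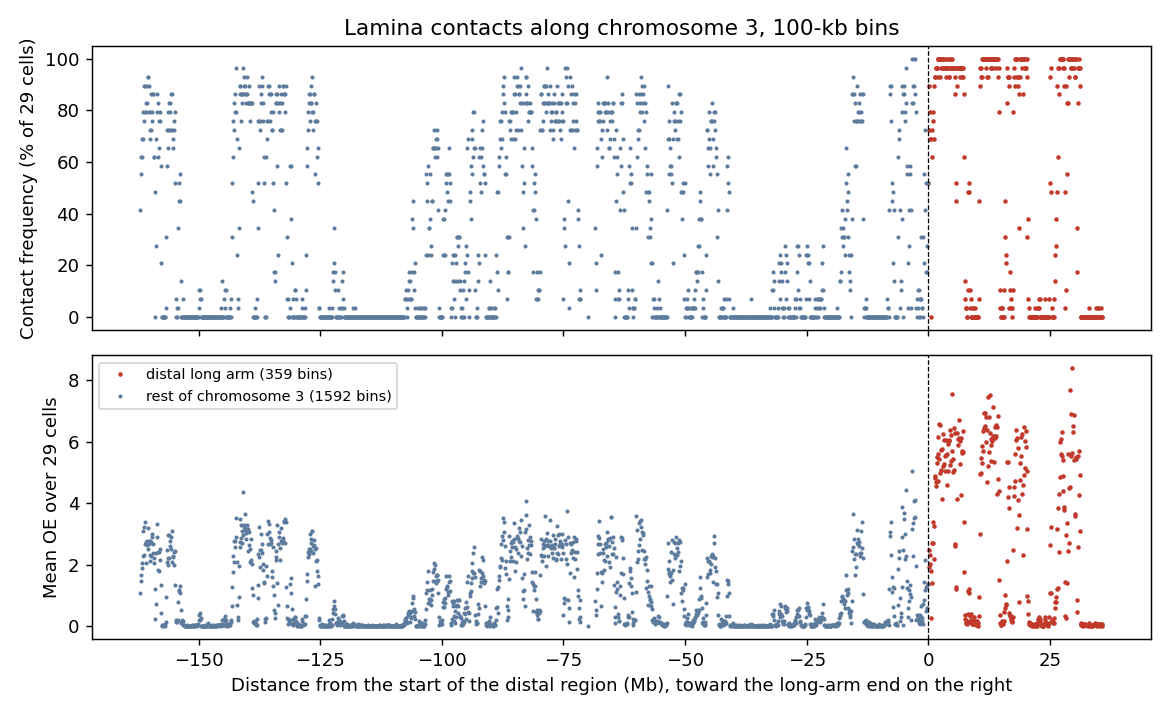
Contact frequency (upper panel, % of 29 cells) and mean OE (lower panel) of each 100-kb bin of chromosome 3, plotted by distance in Mb from the start of the distal region, with distal bins in red and the rest of the chromosome in blue. Distal bins gather near 100% and near 0%, and their highest bin has a mean OE of 8.37.

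The contact share of the distal long arm was 35.7 to 59.9% in the 29 cells (median 54.0%), against 18.3 to 42.1% (median 31.8%) in the rest of chromosome 3. The mean was 53.5% ± 4.83 in the distal long arm and 30.5% ± 6.79 in the rest of chromosome 3 (SD, n = 29), and the distal share was the higher in 29 of 29 cells, by 13.1 to 33.0 percentage points. Chromosome 4, the most contacted of the other chromosomes as a whole, had a mean share of 45.1% ± 6.80. Parts of a chromosome differ more than whole chromosomes. Over 6-Mb windows, the mean share was 0 to 73.1% in the rest of chromosome 3 and 18.9 to 88.7% in the distal long arm. The windows at 84 to 90 Mb (73.1%) and 24 to 30 Mb (68.3%) thus lay above the mean of the distal long arm. With all 32 cells the distal share was 49.6% ± 13.2. Over cells, the distal share followed depth, with a Pearson's r of 0.609 and a Spearman's rho of 0.714 with log10 reads (n = 29; r = 0.660 with the 2 cells of most extreme depth left out). The share of the rest of chromosome 3 also followed depth, with a Pearson's r of 0.528 and a Spearman's rho of 0.599. Its r was 0.703 with the same 2 cells left out. Thinned to the 40279 reads of the sparsest of the 29 cells, the mean distal share was 52.9%.

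Over all used bins there were 77 stretches of at least 1 Mb in which each bin reached a frequency of 80%. Of these, 7 lay in the distal long arm, and with all 32 cells 6 of 17 did. The 7 stretches form the contacted domains of the region. The longest ran over 4.5 Mb (163200001 to 167700000). Its mean OE per cell was 1.38 to 10.7 with a median of 4.99, and its mean contact frequency was 96.6%. The next ran over 4 Mb (172600001 to 176600000), with a mean OE per cell of 2.78 to 11.9, a median of 5.60 and a contact frequency of 98.2%. Every bin of the longest stretch was in contact in 19 of 29 cells and every bin of the 4-Mb stretch in 21 of 29. Most cells thus had an uninterrupted run of contacted bins over several Mb. With 15 h of induction in diploid cells, these bins need not have met the lamina at the same time or on the same copy. The longest run of a cell within the region was 1.5 to 6.9 Mb (median 5.1 Mb), and it reached 4 Mb in 24 of 29 cells.

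The other 5 contacted domains were shorter and lay at 167900001 to 169400000 (1.5 Mb), 179600001 to 180600000 (1 Mb), 180700001 to 182400000 (1.7 Mb), 188700001 to 190100000 (1.4 Mb) and 190700001 to 192500000 (1.8 Mb). Their mean contact frequencies were 94.7 to 97.3% and their mean OE ranged from 4.80 ± 1.41 at 188700001 to 5.57 ± 1.93 at 167900001 (SD, n = 29). The single bin of highest mean OE was within the last of them, at 191500001 to 191600000. It had an OE of 3.27 to 17.7 in the 29 cells, with a median of 7.74, and was in contact in all of them. Together the 7 domains hold 159 of the 177 frequently contacted distal bins.

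The 2 longest domains were close in mean OE. The 4-Mb domain averaged 5.94 ± 1.99 and the 4.5-Mb domain 5.37 ± 2.14 (SD, n = 29), and the 4-Mb domain was the higher in 20 of 29 cells. Both domains were delimited and picked from these same OE values, so a p-value here describes only how regular the difference was over the cells. The difference of 0.56 passed a two-sided sign-flip permutation test over cells (adjusted p = 0.0409 over 7 tests of this kind). It did not pass without the 5 sparsest cells (0.48, adjusted p = 0.0656), after thinning (0.56, adjusted p = 0.0598), without bins of low expected reads (0.53, adjusted p = 0.0597) or without cell 5 (0.53, adjusted p = 0.0582), and over 5 alternatives its adjusted p was 0.0139 to 0.0656.

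**Figure D2:**
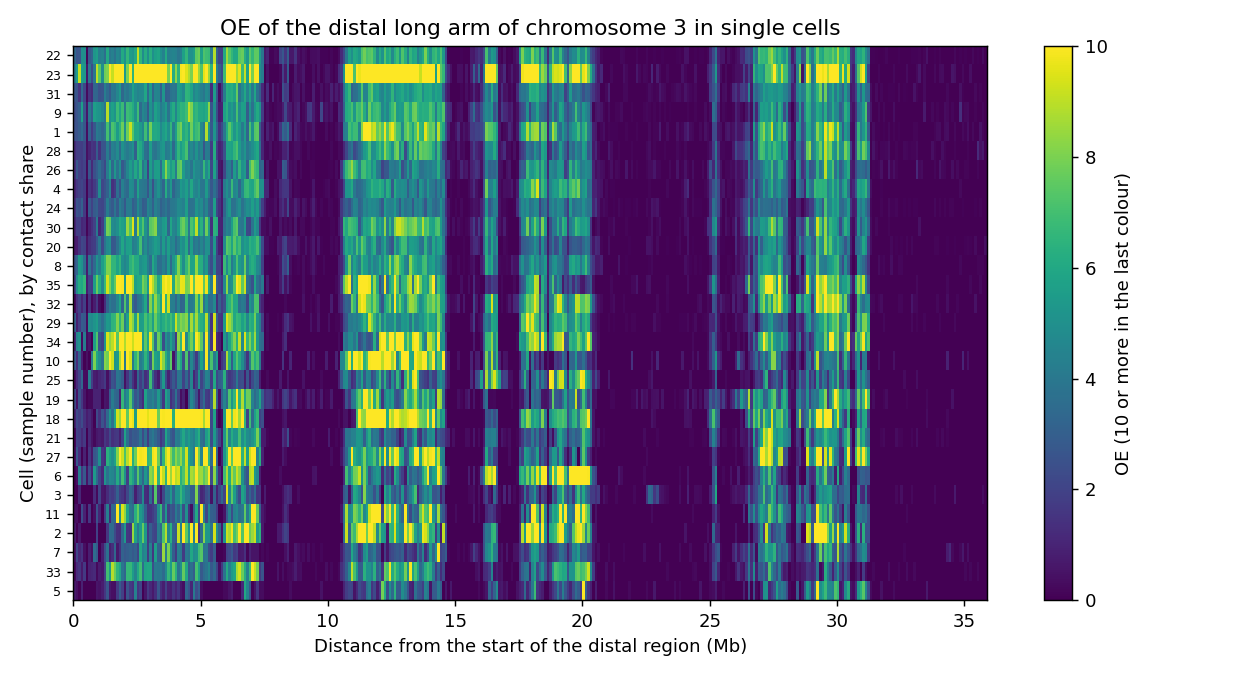
OE of every distal bin (columns, distance in Mb from the start of the region) in the 29 deeper cells (rows, sample number, ordered by contact share), with colour from 0 to an OE of 10 or more. The contacted domains appear as bright blocks with shared edges in nearly all cells, cell 23 reaches the last colour over much of the 2 longest, and cell 5, in the bottom row, is dim over the first ones.

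The never-contacted stretches lay between these domains and at the chromosome end. Of at least 1 Mb there were 4, at 182800001 to 183900000 (1.1 Mb), 185000001 to 186100000 (1.1 Mb), 193300001 to 195100000 (1.8 Mb) and 195200001 to 196400000 (1.2 Mb). Their mean OE was 0.0446 to 0.0673, resting on 82 to 193 reads each over the 29 cells. The bin at 195600001 to 195700000, inside the last of them, had no read in the 29 cells, and its expected reads could not be recovered. It counts among the 101 never-contacted distal bins but may simply not be measurable. Without it, neither piece of that stretch would reach 1 Mb. At 182800001 to 183900000 the OE was 0.0554 ± 0.0442 (SD, n = 29), with at least 1 cell at 0 and a highest cell of 0.170. The contacted domain that ends nearest to it, at 182400000, averaged 5.04 ± 2.00.

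Several domain borders were crossed within 1 bin. At 193300000 the contact frequency was 89.7% on the side toward the centromere and 0% on the side toward the chromosome end, and the mean OE of these neighbouring bins was 3.09 and 0.0950. At 178700000 the neighbouring bins had contact frequencies of 89.7% and 3.45%. A single bin at 162500001 to 162600000 made contact in no cell (OE 0.284), while its neighbours on both sides had contact frequencies of 69.0%. Likewise, 1 bin at 180600001 to 180700000 with a frequency of 34.5% parted the domains at 179600001 and 180700001, whose bins beside it had 89.7% and 86.2%. Such changes of at least 50 percentage points between neighbouring bins occurred 14 times in 358 neighbouring pairs of the distal long arm (3.91%), 25 times in 1589 pairs of the rest of chromosome 3 (1.57%) and in 1.04% of all neighbouring pairs. They were counted on the OE as deposited, and a bin with higher values crosses the OE limit in more cells. How far the higher OE of contacted distal bins enlarges these changes was not tested. The bins within 1 Mb before and after the 4-Mb domain had contact frequencies of 5.52% and 10.0%. The 4.5-Mb domain had no such edges, with 66.6% before it and 85.9% after it, where the next domain begins 0.2 Mb further on.

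The OE of contacted bins was higher in the distal long arm than on any other chromosome of the table. Over the bins that reached 80%, the mean OE of a cell was 2.45 to 9.81 (median 5.11) in the distal long arm, against 1.57 to 3.87 (median 3.02) in the rest of chromosome 3. The means were 5.27 ± 1.49 in the distal long arm and 2.89 ± 0.57 in the rest of chromosome 3 (SD, n = 29). Over the 19 other chromosomes with such bins, the mean was 2.45 (chromosome 16) to 3.22 (X). The ratio of distal over rest of chromosome 3 was 0.903 to 3.53 with a median of 1.72. In 26 of 29 cells it was at least 1.46, and in cells 3, 5 and 7 it was 1.01, 0.988 and 0.903. Cell 23 had the highest ratio, with an OE of 9.81 in distal bins and 2.77 in the rest of chromosome 3. The ratio showed little relation to depth (r = -0.06 and rho = -0.04 with log10 reads, n = 29; r = -0.02 with the same 2 cells left out).

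**Figure D3:**
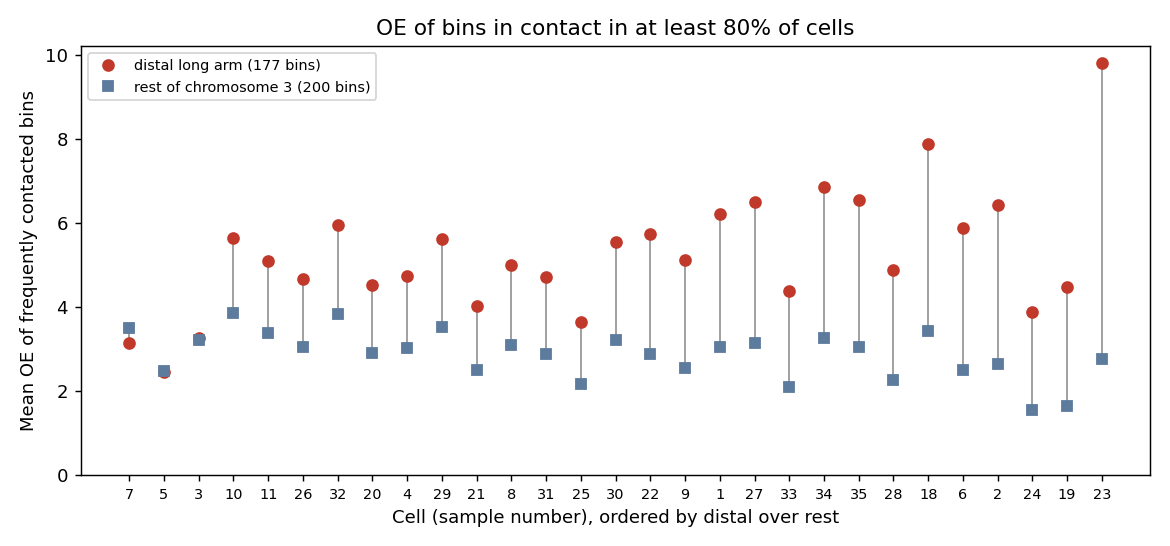
Mean OE of frequently contacted bins in each of the 29 cells, with red circles for the distal long arm (177 bins) and blue squares for the rest of chromosome 3 (200 bins), ordered by their ratio. The circles lie well above the squares in 26 cells and near or below them in cells 7, 5 and 3.

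All bins together gave the same order. The mean OE over all distal bins was 1.26 to 5.21 in the 29 cells (median 2.71), against 0.560 to 1.40 (median 1.00) in the rest of chromosome 3. The ratio was 1.55 to 4.79 with a median of 3.00, above 1 in 29 of 29 cells, and 2.96 with all 32 cells. The distal bins took 1.87 to 7.52% of the reads of a cell (median 3.91%), against 1.44% of the expected reads. The median expected reads of a bin were alike, at 5.23 in the distal long arm and 5.31 in the rest of chromosome 3.

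The distal level was higher in the bins of highest contact frequency and in those never in contact, and not in the classes between them. Among bins in contact in all 29 cells, the mean OE was 5.97 ± 1.73 for 72 distal bins, 4.40 ± 1.66 for 3 bins of the rest of chromosome 3 and 3.80 ± 0.71 for 58 bins of other chromosomes (SD, n = 29). Among bins of 20 to under 80% it was 1.41 ± 0.59 for 36 distal bins and 1.67 ± 0.41 for 514 bins of the rest of chromosome 3. Among bins above 0 and under 20% it was 0.248 ± 0.157 for 45 distal bins and 0.279 ± 0.149 for 260 bins of the rest of chromosome 3. A bin with higher values also crosses the OE limit in more cells, so the level within a frequency class is bounded by the class. Bins in contact in no cell had an OE of 0.0718 ± 0.0467 in the distal long arm and 0.0423 ± 0.0233 in the rest of chromosome 3, with 0.00997 to 0.0539 (chromosome 4) on the 21 other chromosomes. The lowest was the chromosome that the table names 22:9, and KBM7 is known to carry the Philadelphia translocation between these chromosomes.

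The level of the never-contacted bins rests on few reads. The 101 distal bins of this class had 1 to 153 reads in a cell (median 40) and 1502 over all 29 cells. The ratio of distal over rest of chromosome 3 was 0.717 to 6.23 with a median of 1.56, above 1 in 26 of 29 cells. It depended on which bins were taken as rarely contacted. The median ratio was 1.10 over bins in contact in at most 1 cell in 10 and 2.98 over the 25% of bins of lowest mean OE in each of the 2 regions.

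**Figure D4:**
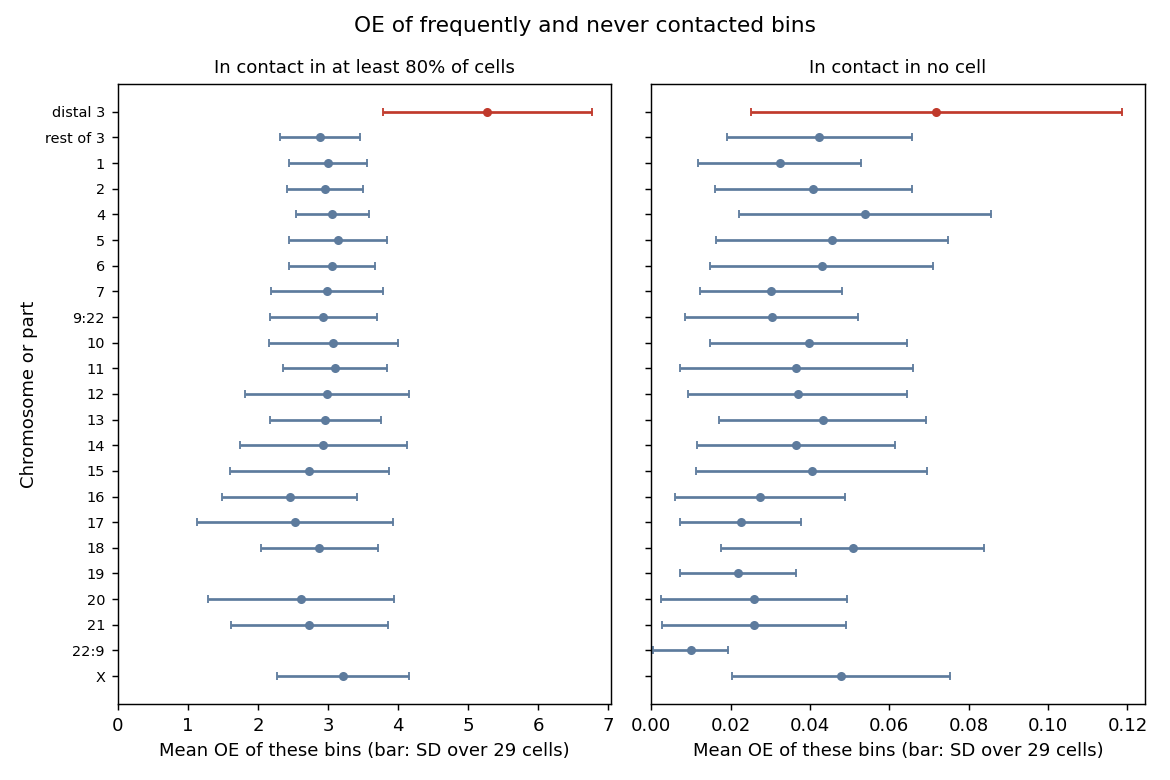
Mean OE of bins in contact in at least 80% of cells (left) and in no cell (right) for the distal long arm (red), the rest of chromosome 3 and each other chromosome (blue), with bars for the SD over 29 cells. The distal long arm has the highest mean in both panels, and in the right panel its bar overlaps those of most other chromosomes.

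Dividing the distal OE of each cell by its own ratio left most bins of the domains at a frequency of 80% or more, but fewer in contact in all cells. Divided by the ratio of never-contacted bins, 159 distal bins still reached a contact frequency of 80% and the mean distal share was 48.7%. Divided by the ratio of frequently contacted bins, these were 158 bins and 48.4%. In each cell the second divisor gives frequently contacted distal bins the mean OE of such bins in the rest of chromosome 3. Those were chosen for reaching 80%, so high frequencies after this division follow largely from that choice. The count of distal bins in contact in all 29 cells, 72 as deposited, was 18 with the first divisor and 35 with the second. The 7 domains then had mean contact frequencies of 91.0 to 94.6% with the first divisor and 91.0 to 95.9% with the second. The 4.5-Mb domain was shortened to 4.1 Mb (163300001 to 167400000) under both and remained the longest stretch of the table. The 4-Mb domain was 3.9 Mb long (172700001 to 176600000) with the second divisor. With the first it was broken, and its longest piece of 2.4 Mb (174200001 to 176600000) ranked behind the 4.1-Mb stretch and stretches on X and chromosomes 4, 5, 11, 18 and 1.

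The boundary of the region runs through bins of mixed values. The 10 bins just inside had contact frequencies of 0 to 89.7% and mean OE of 0.284 to 3.38, averaging 1.97. The 10 bins just outside had contact frequencies of 17.2 to 72.4% and mean OE of 0.507 to 2.16, averaging 1.07. The 3 bins of the rest of chromosome 3 that were in contact in all 29 cells lay 2 to 4 Mb before the region. In the distal long arm, frequently contacted bins averaged an OE of 4.62 in its first 2 Mb and 5.48 in the next 2 Mb, and 4.65 to 5.73 over its 6-Mb windows. The 8 such bins in the last 4 Mb before the region had 3.63 ± 1.43, and the 192 on chromosome 3 before those had 2.86 ± 0.60 (SD, n = 29). All 8 lay 2 to 4 Mb before the region, and the last 2 Mb held none. Of the 192, the 6 at 4 to 6 Mb before the region averaged 3.37 and the 3 at 6 to 8 Mb before it 3.12.

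Within the region the contact share varied strongly along the chromosome. In segments of 6 Mb, counted from the start of the region, the segment at 0 to 6 Mb had a mean share of 88.7% ± 11.7 (SD, n = 29), with cells at 41.7 to 98.3%. It was followed by 12 to 18 Mb (64.3% ± 6.94), 24 to 30 Mb (58.9% ± 7.63), 6 to 12 Mb (50.5% ± 7.37), 18 to 24 Mb (39.4% ± 3.87) and 30 to 36 Mb (18.9% ± 2.79). The first segment holds 47 frequently contacted bins and 1 never-contacted bin, and the last holds 11 and 41. Neighbours in this order were compared by a two-sided sign-flip permutation test over cells. The same shares set the order, so the p-values describe how regular each difference was over the cells and are no independent support for the order. The difference between 12 to 18 Mb and 24 to 30 Mb, 5.40 percentage points, had an adjusted p of 0.00485 and held in 19 of 29 cells. The other 4 pairs differed by 8.39 to 24.5 points in 25 to 29 of 29 cells, with an adjusted p of 1.4e-05 each. The 5.40 points did not pass with an OE limit of 0.5 (3.56 points, adjusted p = 0.0526) or with any read counted (0.805 points, adjusted p = 0.651), and over 10 alternatives its adjusted p lay between 4.8e-05 and 0.651.

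**Figure D5:**
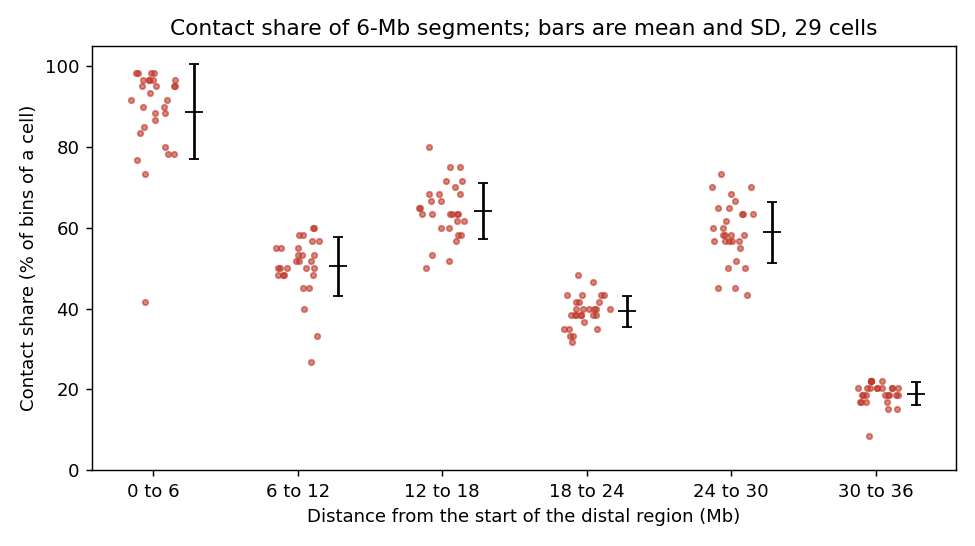
Contact share of each of the 29 cells (points) in 6 segments of 6 Mb, by distance in Mb from the start of the distal region, with black bars for the mean and SD. The first segment is highest at 88.7% and the last lowest at 18.9%, and 1 cell lies at 41.7% in the first.

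The chromosome end was rarely in contact. In the last 5 Mb, 2.04 to 8.16% of 49 bins were in contact in a cell (median 6.12%), against 40.3 to 68.4% (median 61.6%) of the other 310 distal bins, and the cells of the 2 parts did not overlap. The mean was 6.19% ± 1.15 in the last 5 Mb and 61.0% ± 5.54 in the other distal bins (SD, n = 29). The difference of -54.8 percentage points was negative in 29 of 29 cells (two-sided permutation test by sign flips, p = 1e-05, which is the lowest value that 100000 resamples allow, and adjusted p = 1.4e-05). The other distal bins belong to a region chosen from these same OE values. The p-value therefore describes how regular the difference was over the cells and is no independent support. With the region begun 5 Mb further along, the difference was -49.3 points. Of the 49 bins in the last 5 Mb, 41 were in contact in no cell, and 1 of these 41 had no read in the 29 cells. The 3 bins before the border at 193300000 made contact in at least 26 cells each, and the 5 others in 1 cell each. Counting the last 10 Mb instead took in the domains at 188700001 to 190100000 and 190700001 to 192500000, and the difference was then -13.5 points. In the last 2 Mb the share was 0.726% ± 1.85 of 19 bins.

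Nearly all cells had most bins of each domain in contact. The domains were drawn from these same cells as bins at a frequency of 80% or more. High shares in most cells therefore follow largely from that choice. In 6 of the 7 domains, each of the 29 cells had at least 50% of the bins in contact, and in the domain at 167900001 this was so in 27 cells. The 2 exceptions were cells 5 and 7. Cell 5, which had the lowest distal share (35.7%), had 55.6% of the bins of the longest domain and 33.3% of those of the domain at 167900001 in contact. In the same cell the 5 other domains had 80.0 to 94.4% of their bins in contact. Its share in the rest of chromosome 3, 22.3%, was the fifth lowest of the 29 cells, and it had 85254 reads. Cell 7 had an OE of 1.08 in the domain at 167900001 and of 2.78 to 3.93 in the other 6. Without cell 5, 181 distal bins reached 80% and the mean distal share was 54.2%.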

How the data were processed

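The deposited table holds ratios: each value is the OE of a 100-kb bin in 1 cell, and the name of the deposited table and its values are the source of that unit. Reads were handled with cutadapt and Bowtie2 2.1.0 on hg19, per the submitters' processing notes. What the expectation rests on is not given in the sources used here, nor is any removal of duplicates. Per the labels' protocols, DpnI-cut DNA was amplified with 21 extension steps. Of 35 labelled samples, 32 matched a column by number, and 3 were not analysed here.

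Whole reads were recovered from the steps of the values within each bin (tolerance 0.01 reads) and used for depth, expected reads and thinning. Cells with at least 10000 recovered reads entered. PCR reads are not independent molecules, so depth covers counting only. Contact was an OE of 1 or more. Sign-flip tests used 100000 resamples, two-sided, with Benjamini-Hochberg adjustment over 7 tests and a threshold of 0.05; read recovery, level ratios and this test were checked on simulated data. Python 3.11.15, numpy 2.4.6, scipy 1.17.1 and pandas 2.3.3 were used.

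Stretches of at least 1 Mb with each bin at a frequency of at least 80%, or with none in contact, were named by rule. The bin of highest OE, single cells and single borders were picked from their values. The region, lists and tests were chosen with earlier results of these data known. Planned gene lists were not run, since no hg19 annotation was used here, and no sequence is shown for the same reason.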

Additional observations from a re-analysis of the deposited data

Results flagged for a closer look

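The 3 shallow cells enter the values above only where they or all 32 cells are named. These cells also held reads in the distal long arm, above the 3 counts that a count of 0 allows. Cell 13 had 37 reads there, which is 3.76% of its reads (95% Wilson interval 2.74 to 5.13%). Cell 15 had 70 reads, 5.73% (4.56 to 7.18%), and cell 17 had 51, 2.91% (2.22 to 3.80%). The 29 deeper cells had 1.87 to 7.52%, and the region holds 1.44% of the expected reads. The intervals cover counting error only.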

How the results depend on the processing

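Of 121 values recomputed over 12 results, 106 did not change the call or direction of a test, moved a count by at most 1.5 times, or moved an untested value by less than 1 SD. The mean distal share, 53.5%, was 58.8, 46.5 and 70.2% with OE limits of 0.5, 2 and any read, 47.7% with the region begun 5 Mb further along, and 48.7 and 48.4% after division by the never- and the frequently contacted ratio. The 101 never-contacted distal bins were 53 at a limit of 0.5 and 1 when any read counted, which is the bin without a read. The level ratio of rarely contacted bins, 1.56, was 2.98 over the 25% of bins of lowest OE (28 cells with a ratio). The segments at 12 to 18 and 24 to 30 Mb differed by 3.56 and 0.805 points when the limit was 0.5 or any read. The OE difference of the 2 longest domains, 0.56, did not pass without the 5 sparsest cells (0.48), after thinning (0.56), without bins of low expected reads (0.53) or without cell 5 (0.53). For all of these, the cause was not tested. The count at 80% stayed within 138 to 204. Segments and domains were not recomputed for regions begun 5 Mb earlier or later. Division by the frequently contacted ratio and leaving out cell 5 were chosen after seeing the data. The tests are paired within cells. No fit with a replicate block could be made, since the samples form 1 group. Few reads lie behind the never-contacted distal bins, with a median of 40 a cell. The contact share was higher in deeper cells, both in the distal long arm (rho = 0.714) and in the rest of chromosome 3 (rho = 0.599).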

Other observations

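The OE of the 7 contacted domains varied together over the 29 cells to a differing degree. Spearman's rho between the mean OE of 2 domains was -0.04 to 0.767 with a median of 0.501 over 21 pairs. It was highest for the 2 longest domains, 4.9 Mb apart (rho = 0.767, Pearson's r = 0.769), and lowest for the domains at 180700001 and 188700001, 6.3 Mb apart (rho = -0.04). The domains at 179600001 and 180700001, 0.1 Mb apart, had a rho of 0.701, and those at 188700001 and 190700001, 0.6 Mb apart, 0.669. The first domain and the last, 23 Mb apart, had a rho of 0.510. With the frequently contacted bins of the rest of chromosome 3, rho was -0.06 to 0.398 over the 7 domains. The values of a cell share its library, its depth and its scaling, so these are descriptions of the 29 cells.

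The 36 distal bins of intermediate contact frequency lay in 20 stretches, and 19 of the 36 bins were next to a frequently contacted bin. Frequently contacted bins make up 49.3% of the distal bins, so such neighbours are common, and the share over all distal bins was not counted. The longest intermediate stretch, 0.6 Mb at 162600001 to 163200000, leads into the first domain with contact frequencies of 62.1 to 79.3%. A stretch of 0.4 Mb at 177700001 to 178100000 had 20.7 to 44.8%, and 1 of 0.3 Mb at 170200001 to 170500000 had 48.3 to 51.7%.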
